A study of Sus scrofa with 9 samples.

Results

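Simple keratins are the intermediate filament proteins of single-layered epithelia such as kidney tubules. Of 5 listed genes, KRT8, KRT7, KRT18, KRT19 and VIM, 3 could be measured: KRT8, KRT18 and KRT19, among 12362 genes named on the array. A gene was taken from the probe set whose only symbol in the array's annotation is that gene, and each of the 3 had 1 such probe set. KRT7 and VIM (vimentin, the intermediate filament protein of mesenchymal cells) have no named probe set and were not analysed here.

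Keratin filaments form from pairs of 1 type II and 1 type I chain. KRT8 and KRT7 are type II chains, and KRT18 and KRT19 are type I chains. KRT8 and KRT18 pair in simple epithelia and give cells mechanical strength, and KRT19 is a small type I chain found in many ducts and progenitor-like epithelia. In the kidney, keratins are most evident in collecting duct and other distal epithelia, and injured tubule cells are known to contain more of them. In the RefSeq gene table for Sscrofa11.1, KRT8 and KRT18 neighbour each other with 1 other gene between them, the long non-coding RNA gene LOC106506682, and KRT19 lies on another chromosome. The NCBI Gene IDs are 100152077 for KRT8, 100126286 for KRT18 and 100515339 for KRT19.

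Total RNA from kidney biopsies of 9 male Yorkshire pigs of 30 kg was measured on 1 Affymetrix array per animal. In all animals the right kidney had 30 min of warm ischemia, was removed, flushed and put back into the same animal (autotransplantation), the left kidney was removed, and the graft was biopsied on day 3. No Storage kidneys (n = 3) were re-implanted at once. SCS kidneys (n = 3) first spent 8 h in static cold storage, without flow in cold solution, and for NEVKP kidneys (n = 3) the 8 h were passed under normothermic ex vivo kidney perfusion, in which fluid near body temperature flows through the organ outside the body. The controls thus carried the same warm ischemia, surgery and loss of the other kidney, and no kidney without this injury was analysed here. The animals' age is not given in the sources used here.

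Values are log2 intensities (a difference of 1 is a doubling). Array medians ran from 5.70 to 5.80 over 19124 probe sets, and the Pearson r between any 2 arrays was 0.974 to 0.991. SCS replicate 2 and NEVKP replicate 2 had the lowest array weights in limma, 0.464 and 0.565, against 0.93 to 1.62 for the others. The labelled tissue was borne out by bright tubule markers, among them the proximal tubule receptor gene LRP2 at a mean of 12.14 and the proton pump gene ATP6V1B1 at 12.73. Not all tubule markers were bright: the proximal tubule gene SLC34A1 had a mean of 4.87 and the collecting duct gene AQP4 2.47.

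All 3 keratin transcripts were lowest in No Storage kidneys and highest on average in SCS kidneys, with NEVKP kidneys between them. Their order among the arrays was not alike. KRT8 and KRT19 lay about midway between the other groups in NEVKP kidneys, whereas KRT18 lay near its No Storage level. None of the 3 passed a limma adjusted p of 0.05 over all 19124 probe sets in any comparison, and KRT18 in SCS against No Storage came closest, at 0.0513.

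KRT8, the type II chain, had values of 9.37, 9.23 and 9.27 in No Storage replicates 1, 2 and 3. It had values of 9.82, 10.77 and 9.97 in the SCS replicates. It had values of 9.89, 9.90 and 9.56 in the NEVKP replicates. Every No Storage array lay below every stored or perfused one, the SCS and NEVKP arrays overlapped, and SCS replicate 2 stood highest. The group means were 9.29 ± 0.07, 10.19 ± 0.51 and 9.78 ± 0.20 (SD, n = 3 each) in No Storage, SCS and NEVKP.

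KRT18, the type I partner of KRT8, had values of 7.95, 7.98 and 7.74 in the No Storage replicates. It had values of 9.12, 9.27 and 8.56 in the SCS replicates. It had values of 8.08, 7.99 and 8.19 in the NEVKP replicates. The SCS arrays stood apart from the other 6, and the lowest NEVKP array lay only 0.018 above the highest No Storage array. The group means were 7.89 ± 0.13, 8.98 ± 0.37 and 8.09 ± 0.10 (SD, n = 3 each).

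KRT19, the other type I chain, had values of 9.74, 9.66 and 9.63 in the No Storage replicates. It had values of 10.31, 10.78 and 10.34 in the SCS replicates. It had values of 10.02, 10.40 and 10.11 in the NEVKP replicates. The No Storage arrays were again the lowest and close together, and NEVKP replicate 2 lay above SCS replicates 1 and 3. The group means were 9.68 ± 0.06, 10.48 ± 0.26 and 10.18 ± 0.20 (SD, n = 3 each). In SCS the spread of each keratin was larger than in No Storage, and SCS replicate 2 was the highest of all 9 arrays for all 3 genes.

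**Figure D1:**
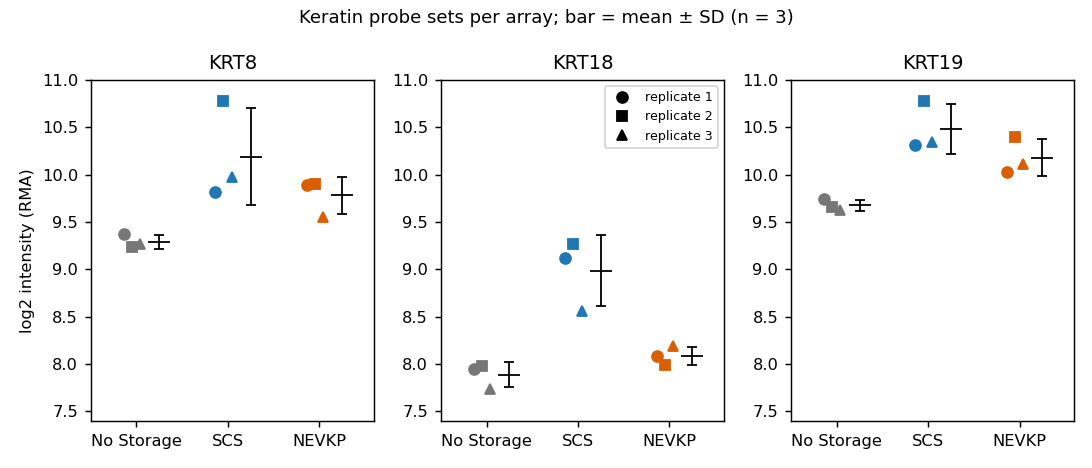
Log2 intensity (vertical axis) of KRT8, KRT18 and KRT19 in each array of the No Storage, SCS and NEVKP groups (horizontal axis); points are arrays, shapes are replicate numbers, and bars are the mean ± SD of 3 arrays. The No Storage arrays are the lowest for each gene, and for KRT18 the SCS arrays (8.56 to 9.27) stand above all NEVKP arrays (7.99 to 8.19).

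Cold-stored kidneys were first set against kidneys re-implanted at once. The log2 difference of KRT18 was 1.09 (SE 0.18, limma adjusted p = 0.0513), a 2.13-fold higher level with a 95% confidence interval of 1.62-fold to 2.82-fold. KRT8 differed by 0.90 (SE 0.23, limma adjusted p = 0.108), 1.87-fold with an interval of 1.32 to 2.64. KRT19 differed by 0.80 (SE 0.16, limma adjusted p = 0.0646), 1.74-fold with an interval of 1.37 to 2.22. By p, KRT18 was number 41, KRT19 number 136 and KRT8 number 441 of the 19124 probe sets.

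At an adjusted p under 0.05, 0 of the 3 keratins and 31 of 19124 probe sets (0.162%) passed, 0.068% higher and 0.0941% lower. At an unadjusted p under 0.05, all 3 were higher, where 7.75% of all probe sets were higher and 7.79% lower. All 3 had SCS arrays entirely above the No Storage arrays, which held for 11.3% of all probe sets, with 11.6% entirely below. The gap between the lowest SCS and the highest No Storage array was 0.58 for KRT18, 0.57 for KRT19 and 0.45 for KRT8.

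The side of the threshold on which KRT18 and KRT19 fell depended on single arrays. KRT18 passed without SCS replicate 3 (difference 1.31, limma adjusted p = 0.0172) and without NEVKP replicate 2 (limma adjusted p = 0.0433), and over all fits with 1 array left out its adjusted p ran from 0.0172 to 0.225. With all 9 arrays KRT18 also passed with array weights (limma adjusted p = 0.0428), a trended and robust prior (0.0452), centred arrays (0.0498) and without the dimmest 25% of probe sets (0.0442). KRT19 passed without NEVKP replicate 2 (limma adjusted p = 0.0483). KRT8 did not pass in any of these fits, and without SCS replicate 2, its highest array, its difference was 0.61 (limma adjusted p = 0.187). Without both arrays of lowest weight the differences were 0.95 for KRT18, 0.65 for KRT19 and 0.61 for KRT8, and the limma adjusted p was 0.0976, 0.0887 and 0.127.

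**Figure D2:**
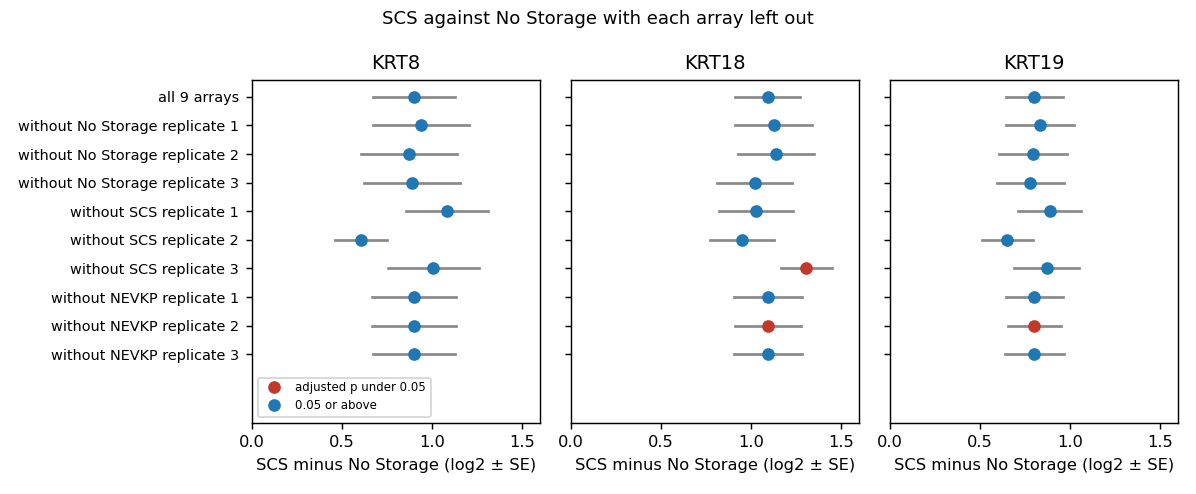
Log2 difference ± SE between SCS and No Storage (horizontal axis) for each keratin in the fit of all 9 arrays and with each array left out (vertical axis); red points have a limma adjusted p under 0.05. The differences stay above 0 throughout, the lowest being 0.61 for KRT8 without SCS replicate 2, and the threshold is passed in 2 of the 9 leave-out fits for KRT18 and in 1 for KRT19.

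Warm-perfused kidneys were set against the same controls. KRT19 differed by 0.50 (SE 0.16, limma adjusted p = 0.439), 1.42-fold with an interval of 1.11 to 1.81. KRT8 differed by 0.49 (SE 0.23, limma adjusted p = 0.554), 1.41-fold with an interval of 0.99 to 1.99. KRT18 differed by 0.20 (SE 0.18, limma adjusted p = 0.788), 1.15-fold with an interval of 0.87 to 1.51. The KRT18 and KRT8 intervals thus included no difference. Without No Storage replicate 3 the KRT18 difference was 0.12.

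In limma, 0 of 19124 probe sets (0%) passed here, while 1735 (9.07%) had an unadjusted p under 0.05. KRT19 had an unadjusted p under 0.05, where 4.67% of all probe sets were higher and 4.4% lower. The unadjusted limma p of KRT8 was 0.0532, and it was 0.0488 with the replicate number as a block, 0.021 with array weights and 0.00684 with the compared groups alone. It was also under 0.05 without SCS replicate 1 (0.0388), SCS replicate 2 (0.00449) or NEVKP replicate 3 (0.0395). Leaving out an SCS array changes the shared spread but not this difference. The limma adjusted p of KRT8 ran from 0.343 to 0.865 with 1 array left out, and passed in 0 of these 9 fits. All 3 had NEVKP arrays entirely above the No Storage arrays, which held for 7.94% of all probe sets, with 8.57% entirely below. The gap was 0.28 for KRT19, 0.19 for KRT8 and 0.018 for KRT18, the last smaller than the SD of either group. This comparison and that of SCS use the same No Storage arrays.

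The comparison of NEVKP with SCS asks whether the way of keeping the kidney for 8 h matters. KRT18 was the keratin with the largest difference, lower in NEVKP by 0.89 (log2 difference -0.89, SE 0.18, interval -1.29 to -0.49, limma adjusted p = 0.419). KRT8 differed by -0.41 (SE 0.23, interval -0.91 to 0.10, limma adjusted p = 0.708). KRT19 differed by -0.30 (SE 0.16, interval -0.65 to 0.05, limma adjusted p = 0.69).

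In this comparison, 0 of 19124 probe sets (0%) passed in limma, while 1434 (7.5%) had an unadjusted p under 0.05. KRT18 was number 23 of all probe sets by p, and number 52 by size among the lower ones. KRT18 had an unadjusted p under 0.05, where 3.7% of all probe sets were lower and 3.8% higher. Its arrays did not overlap, where 6.78% were lower and 5.01% higher, while those of KRT8 and KRT19 did. The unadjusted limma p of KRT8 was 0.101, and 0.0293 without SCS replicate 1. That of KRT19 was 0.0866, and 0.0336 without NEVKP replicate 2. Without SCS replicate 2 the KRT8 difference was -0.11 and the KRT19 difference -0.15, and that of KRT18 was -0.75.

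**Figure D3:**
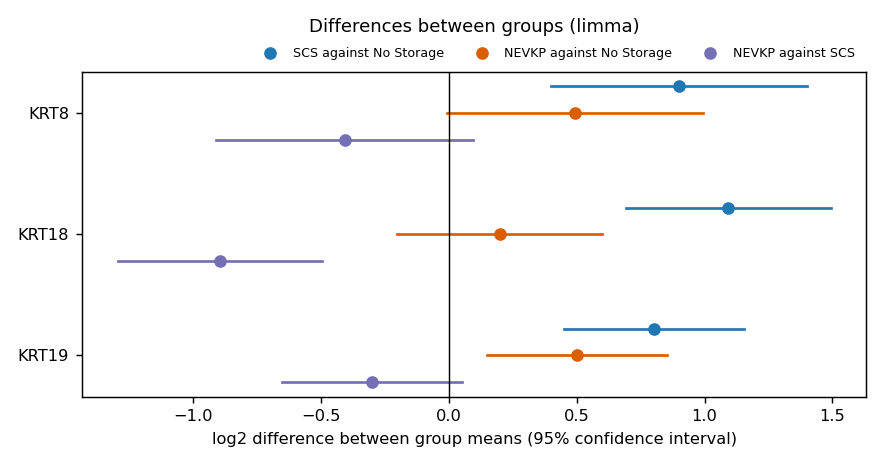
Log2 difference between group means (horizontal axis, point) with its 95% confidence interval from limma (line) for KRT8, KRT18 and KRT19 in the 3 comparisons (colours). Intervals for SCS against No Storage lie above 0 for all 3 genes, and for NEVKP against SCS only that of KRT18 (-1.29 to -0.49) lies below 0; none passed an adjusted p of 0.05.

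In a test of any difference among the 3 groups, the limma adjusted p of the F test was 0.118 for KRT18, 0.165 for KRT19 and 0.241 for KRT8. In this test 1 of 19124 probe sets (0.00523%) passed, and 12.8% had an unadjusted p under 0.05. KRT18 passed without SCS replicate 3 (F = 46.7, limma adjusted p = 0.0405).

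Because KRT8 and KRT18 pair in filaments, the change of KRT18 was set against that of KRT8 within each array, as the log2 ratio relative to its No Storage mean. This ratio was 0.70, -0.11 and -0.01 in SCS replicates 1, 2 and 3. It was -0.40, -0.51 and 0.03 in the NEVKP replicates, and -0.02, 0.14 and -0.13 in the No Storage replicates. The change of KRT18 was thus well above that of KRT8 in SCS replicate 1 alone. It was below that of KRT8 in NEVKP replicates 1 and 2, and the ratios of all groups overlapped.

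The mean ratio was 0.19 ± 0.44 in SCS and -0.29 ± 0.29 in NEVKP (SD, n = 3 each), a difference of -0.49 (two-sided exact permutation p = 0.3). Against No Storage, the exact permutation p was 0.6 for SCS and 0.3 for NEVKP, and 3 against 3 arrays cannot go below 0.1. Without SCS replicate 1 the SCS ratio was -0.059 and the difference between NEVKP and SCS was -0.24. With any 1 array left out the latter ran from -0.65 to -0.24. The NEVKP ratio against No Storage was -0.19 without NEVKP replicate 2 and -0.46 without NEVKP replicate 3. A difference between the changes of KRT18 and KRT8 was therefore not shown at this number of animals. The ratio of KRT8 to KRT19 differed by 0.10 in SCS and -0.0084 in NEVKP from No Storage.

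The ratio of KRT18 to KRT19, on the same scale, was 0.60, 0.28 and 0.0016 in the SCS replicates and -0.15, -0.62 and -0.14 in the NEVKP replicates. It was -0.0022, 0.10 and -0.10 in the No Storage replicates. All NEVKP arrays lay below all No Storage and all SCS arrays for this pair, and SCS overlapped No Storage. The NEVKP mean was -0.30 ± 0.27 and the SCS mean 0.29 ± 0.30 (SD, n = 3 each), a difference of -0.59, given as a description without a test.

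Over the 9 arrays the closest pair was KRT8 and KRT19, with a Pearson r of 0.936 and a Spearman coefficient of 0.917. KRT18 followed KRT8 with r = 0.78 and KRT19 with r = 0.798. After each group's mean was subtracted, r was 0.815 for KRT8 and KRT19, 0.397 for KRT8 and KRT18 and 0.382 for KRT18 and KRT19. These values describe the same 9 arrays that the group differences come from, so no p is given.

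The genes whose values over the 9 arrays were most like each keratin were found by Pearson r among all named genes, and are given without a test because they were picked for it. For KRT8 they included TWF2, an actin-binding twinfilin (r = 0.972), and the RNA methyltransferase gene METTL3 (0.961). For KRT18 they were ADAMTS9, a secreted metalloproteinase (0.984), the mitochondrial ribosomal protein gene MRPL17 (0.963) and TFPT (0.961). For KRT19 they were LOC100524030 (0.979), which was dim at a No Storage mean of 1.93, the transcription factor gene CREB3L1 (0.978) and TGFBI, a matrix protein induced by TGF-beta (0.976). By the same measure KRT19 was number 13 and KRT18 number 436 in likeness to KRT8.

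Other keratins were examined next. Of 39 listed, 17 were measured, and 9 of these were dim, with a mean below 3.92, the limit of the lowest 25% of probe sets. In limma 0 passed over all probe sets in any comparison. In SCS against No Storage 1 was higher and 0 lower at an unadjusted p under 0.05, where 7.75% of all probe sets were higher and 7.79% lower. The median difference of the 17 was -0.08, beside 0.01 for all probe sets. KRT39, a hair keratin, led with 0.35 (limma adjusted p = 0.197), followed by the skin keratin KRT2 at -0.35. The count of higher genes was 0 without No Storage replicate 1 or SCS replicate 3, and 2 without SCS replicate 1. The count of lower genes was 1 without No Storage replicate 2 or 3 or SCS replicate 2 or 3.

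In NEVKP against No Storage 1 other keratin was higher and 1 lower at an unadjusted p under 0.05, where 4.67% of all probe sets were higher and 4.4% lower. The median was -0.13, beside -0.01 for all probe sets. KRT15, a basal cell keratin whose probe set was dim, differed by -0.70 (limma adjusted p = 0.395). The higher gene, KRT39 again, was not counted without No Storage replicate 1 or 3 or NEVKP replicate 1 or 3, and 2 were lower without No Storage replicate 1 or 3, SCS replicate 2 or NEVKP replicate 3. The largest difference above 0 among these 17 genes was 0.35 in SCS and 0.28 in NEVKP, each smaller than that of KRT8 and KRT19 in the same comparison. KRT18 in NEVKP, at 0.20, lay within their range. All 17 had group means below every array median (5.70 or more), the highest being 5.33 for KRT32 in SCS and in NEVKP. The lowest group mean of KRT8, KRT18 and KRT19 was 7.89, for KRT18 in No Storage. RMA compresses low intensities, so the sizes are not a contrast with brighter keratins. Whether other keratins at the level of these 3 differ less was not tested.

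Among 11 measured genes of other intermediate filament families, of 16 listed, 0 passed over all probe sets in any comparison. In SCS against No Storage 3 were higher and 0 lower at an unadjusted p under 0.05, where 7.75% of all probe sets were higher and 7.79% lower. The median was 0.14. The nuclear lamin gene LMNB1 differed by 0.50 (limma adjusted p = 0.277), PRPH, the peripherin gene of neurons, by 0.65 and the lamin gene LMNA by 0.27. The count was 1 without No Storage replicate 1 or SCS replicate 1 or 2, and 0 without No Storage replicate 3 or SCS replicate 3. In NEVKP against No Storage 0 were higher or lower, with a median of 0.07.

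Of 17 genes that tie keratin filaments to desmosomes and other filaments, 9 were measured and 0 passed over all probe sets. In SCS 1 was higher at an unadjusted p under 0.05, where 7.75% of all probe sets were higher. This was PPL, the periplakin that links keratins to the cell border, with a difference of 0.47 (limma adjusted p = 0.194). The count was 0 without SCS replicate 2 and 2 without SCS replicate 1. The median was -0.11 in SCS and -0.09 in NEVKP. Desmosome genes thus did not lie higher along with KRT8, KRT18 and KRT19 as a list.

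Of 25 genes whose proteins bind, modify or degrade keratins or vimentin, 14 were measured and 0 passed. In SCS 1 was higher and 1 lower at an unadjusted p under 0.05, where 7.75% of all probe sets were higher and 7.79% lower. SFN, the 14-3-3 sigma protein that binds keratins in epithelia, differed by 0.72 (limma adjusted p = 0.175), and KLHL24, a ubiquitin ligase adaptor that targets keratin for degradation, by -0.36. In NEVKP the ubiquitin ligase gene TRIM21 differed by 0.63 (limma adjusted p = 0.439). The medians were 0.02 in SCS and 0.08 in NEVKP. Without SCS replicate 2 the number higher in SCS was 4, and without No Storage replicates 1 and 2 in turn it was 0 and 2. The 1 lower gene was not counted without No Storage replicate 1 or 3 or SCS replicate 1 or 2.

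Genes known from injured tubule cells had the highest median difference of the 6 other lists in both comparisons with No Storage, and the lowest, -0.18, in NEVKP against SCS. The cell type lists given below are not in this ranking. Among them, the fibroblast and pericyte list had a median of 0.58 in SCS and 0.61 in NEVKP against No Storage. Of 24 listed, 19 were measured, and 0 passed over all probe sets in limma in any comparison. In SCS 13 were higher and 0 lower at an unadjusted p under 0.05, where 7.75% of all probe sets were higher and 7.79% lower. The median was 0.65. The membrane-binding protein gene ANXA1 differed by 0.93 (limma adjusted p = 0.0646), the hyaluronan receptor gene CD44 by 1.12, the secreted protein gene SPP1 by 0.61 and the actin crosslinker gene ACTN1 by 0.78. With 1 array left out the count stayed between 11 and 14. Not all of the 19 lay higher: the differences ran from -0.75 for PROM1 to 1.13, and HAVCR1, which was dim, differed by -0.06.

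In NEVKP against No Storage 9 of the 19 were higher and 0 lower at an unadjusted p under 0.05, where 4.67% of all probe sets were higher and 4.4% lower. The median was 0.44. ANXA1 differed by 0.81, the integrin gene ITGB6 by 1.23, the tropomyosin gene TPM4 by 0.53 and the adhesion molecule gene VCAM1 by 1.18, with limma adjusted p of 0.342 to 0.395. With 1 array left out the count ran from 6 to 10. In NEVKP against SCS 3.8% of all probe sets were higher and 3.7% lower at an unadjusted p under 0.05. Of the 19 genes 1 was higher, PROM1 (1.45), and 3 were lower. These were CDH6, a cadherin of the nephron (-0.76), the myosin gene MYH9 (-0.38) and CD44 (-0.56), each with a limma adjusted p of 0.599 to 0.655. The number lower was 1 without SCS replicate 1 or 2 or NEVKP replicate 3, and 5 without NEVKP replicate 2.

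Of 22 genes of the epithelial-mesenchymal transition, in which vimentin is a marker, 15 were measured and 0 passed. In SCS 4 were higher and 0 lower at an unadjusted p under 0.05, where 7.75% of all probe sets were higher and 7.79% lower. The median was 0.03. The matrix gene FN1 differed by 1.28 (limma adjusted p = 0.0513), the transcription factor gene SNAI2 by 0.42, the smooth muscle actin gene ACTA2 by 0.58 and the cytokine gene TGFB1 by 0.59. The count was 2 without any 1 of the No Storage replicates and without SCS replicate 2. In NEVKP 2 were higher, beside 4.67% of all probe sets, namely ACTA2 (0.66) and TGFB1 (0.61), with a median of 0.10. This count was 4 without SCS replicate 2, 1 without No Storage replicate 3 or NEVKP replicate 1, and 0 without NEVKP replicate 2. In NEVKP against SCS the only gene of the 15 at an unadjusted p under 0.05 was FN1, at -0.82, where 3.7% of all probe sets were lower and 3.8% higher. Like KRT18, FN1 lay lower in all NEVKP arrays than in all SCS arrays, which held for 6.78% of all probe sets.

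**Figure D4:**
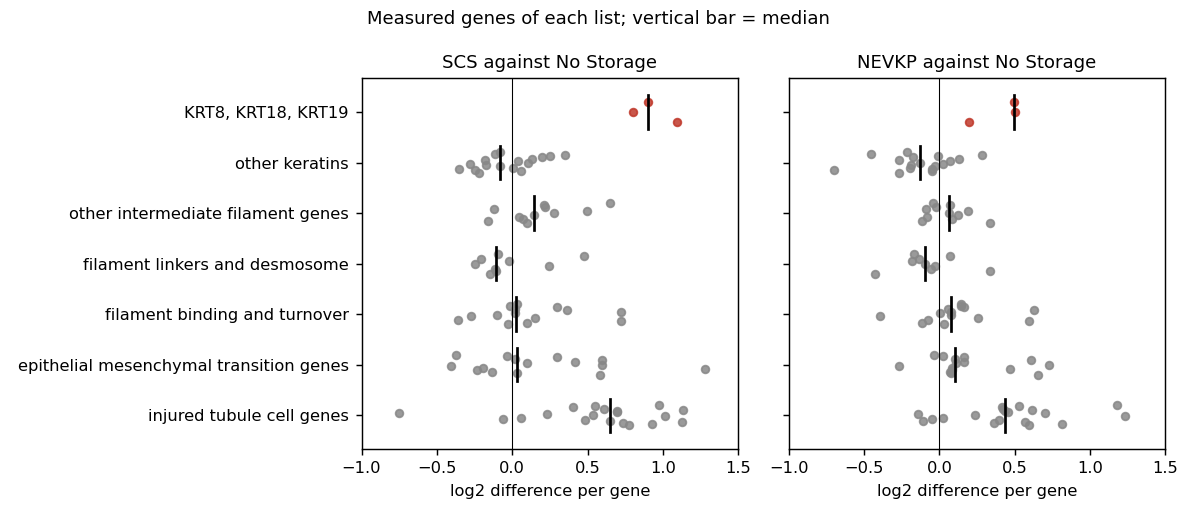
Log2 difference per measured gene (horizontal axis) for the 3 keratins (red) and for 6 other gene lists (grey), in SCS against No Storage (left) and NEVKP against No Storage (right); each point is a gene and each vertical bar a list's median. The medians for the keratins (0.90 and 0.49) and for injured tubule cell genes (0.65 and 0.44) lie right of 0, and those of the other lists lie between -0.13 and 0.14.

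In a biopsy, fewer cells of a type and less RNA per cell cannot be told apart. Markers of other cells that carry keratins were therefore measured beside them, as the mean of a list's log2 values relative to its No Storage mean. Collecting duct markers, 16 measured of 20, lay lower: from -0.93 to -0.44 in SCS arrays and -0.45 to -0.27 in NEVKP arrays, against -0.04 to 0.02 in No Storage arrays. In SCS 8 of the 16 were lower and 0 higher at an unadjusted p under 0.05, where 7.79% of all probe sets were lower and 7.75% higher. The sodium channel gene SCNN1A led (-0.73), and 0 passed over all probe sets in limma. The count was 4 without SCS replicate 1 and 5 without No Storage replicate 2 or 3. Every SCS and NEVKP array thus lay below every No Storage array for this list and above it for the keratins. SCS replicate 1 had the lowest list value, and the lowest KRT8 and KRT19 of the SCS arrays. Its KRT18, at 9.12, lay between the 9.27 and 8.56 of SCS replicates 2 and 3.

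Urothelium markers, 9 measured of 13, ranged from -0.07 to 0.14 in SCS, -0.24 to 0.16 in NEVKP and -0.13 to 0.07 in No Storage. Of its defining genes, UPK1A, UPK2, UPK3A and UPK1B had means of 4.38, 4.97, 4.44 and 5.33, and KRT20 was dim at 3.29. UPK1B reached 6.47 in its highest array and differed by 0.56 in NEVKP (limma adjusted p = 0.671). Mesothelium markers, 5 of 8, ranged from -0.08 to 0.04 in SCS and -0.44 to -0.02 in NEVKP, and CALB2 was dim at 3.47. In SCS, 0 of the urothelium and 0 of the mesothelium markers were higher at an unadjusted p under 0.05, where 7.75% of all probe sets were higher. Without No Storage replicate 1, 1 urothelium marker was higher. Lists of 9 and 5 genes can hold 0 at that share, so these counts do not set the markers apart from other probe sets.

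Markers of fibroblasts and pericytes, 15 of 16, lay from 0.43 to 0.71 in SCS arrays and 0.28 to 0.75 in NEVKP arrays, against -0.09 to 0.06 in No Storage. In SCS 8 of the 15 were higher at an unadjusted p under 0.05, where 7.75% of all probe sets were higher. COL1A1 led (1.11, limma adjusted p = 0.0592), and 0 passed. The count was 3 without SCS replicate 2 and 5 without No Storage replicate 1 or 3 or SCS replicate 3. Leukocyte markers, 19 of 25, lay from 0.14 to 0.36 in SCS and 0.27 to 0.42 in NEVKP, against -0.06 to 0.04, and S100A8 and S100A9 were dim. At an unadjusted p under 0.05, 3 of the 19 were higher and 0 lower in SCS, beside 7.75% and 7.79% of all probe sets. In NEVKP 7 were higher and 0 lower, beside 4.67% and 4.4%. Single leukocyte markers differed by -0.30 to 1.51 in SCS and by -0.09 to 1.19 in NEVKP. Proximal tubule markers, 14 of 20, lay from -0.76 to -0.31 in SCS and -0.67 to -0.11 in NEVKP, against -0.08 to 0.08. At an unadjusted p under 0.05, 6 of the 14 were lower and 1 higher in SCS, beside 7.79% and 7.75% of all probe sets. In NEVKP 3 were lower and 0 higher, beside 4.4% and 4.67%. Single genes differed by -1.33 to 1.02 (SLC34A1) in SCS and by -0.73 to 0.90 in NEVKP. With 1 array left out the number lower ran from 5 to 9 in SCS and from 1 to 7 in NEVKP. Podocyte and endothelium lists overlapped No Storage in both groups. Without SCS replicate 3 or NEVKP replicate 2 between 1 and 3 genes passed the adjusted p in SCS in the collecting duct and fibroblast lists, and 1 in the injured tubule and epithelial-mesenchymal lists. Without NEVKP replicate 2 this was also so of 1 proximal tubule gene. Over the whole array, the number of probe sets passing in SCS was 31 of 19124 with all 9 arrays. It ran from 0 to 158 with 1 array left out, and was highest in these same fits. Of the lists, urothelium shares KRT5, KRT15 and KRT20 with the other keratins, and the fibroblast list shares ACTA2 with the epithelial-mesenchymal list. The podocyte list shares NES with the other intermediate filament genes and WT1 with the mesothelium list. The part of these cell type lists in the keratin differences was not tested.

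**Figure D5:**
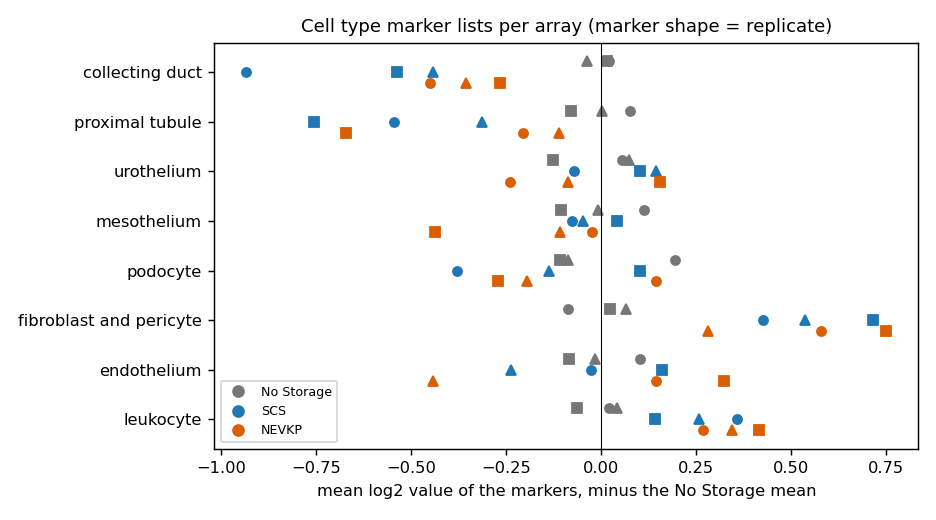
Mean log2 value of each cell type marker list per array, minus the No Storage mean (horizontal axis), for 8 lists (vertical axis); colours are groups and shapes are replicate numbers. Collecting duct and proximal tubule lists lie below 0 in every SCS and NEVKP array, and fibroblast and leukocyte lists lie above 0 in every one of them.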

How the data were processed

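RNA of 9 pig kidney biopsies was measured on Affymetrix arrays. Each deposited value is the log2 intensity of 1 probe set. RMA, which corrects background, normalizes arrays and sums up probes, and limma 3.34.14 are named, per the submitters' processing notes. Scans were not used here, and the sources used here give no filter. RMA compresses low intensities, so a fold change is on that scale.

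Of 19124 probe sets, 13323 had 1 annotation symbol (12362 genes, the probe set of highest mean each), 357 several and 5444 none. The gene IDs of 12925 of the 13323 were in the RefSeq table. Whether keratin probes match near-identical copies was not tested.

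All probe sets were fitted in limma 3.58.1 (R 4.3.3) over 9 arrays, with group as the only factor, 6 residual and 4.12 prior degrees of freedom, and Benjamini-Hochberg adjustment per comparison at 0.05. The steps were tested on simulated data. KRT18 minus KRT8 used an exact permutation test. Text names all members, up to 4 genes per other list by unadjusted p, defining markers, and the 3 genes most alike, of which 1 is not reported here. Members and lists were chosen with earlier results of these data known. Cell type lists were collecting duct, urothelium, mesothelium, podocyte, fibroblast and pericyte, endothelium, leukocyte and proximal tubule. Alternatives were a replicate block, array weights, a trended and robust prior, no dim probe sets, median centring, mean of probe sets, compared groups alone and leaving out arrays. Of 9 same-numbered pairs of arrays, 1 had a correlation of deviations over 0.1 (range -0.139 to 0.131), so numbers were not taken to pair animals. Arrays come from separate animals, and their number limits precision.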

Additional observations from a re-analysis of the deposited data

How the results depend on the processing

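The log2 differences of KRT8, KRT18 and KRT19 kept their direction under every alternative run in all 3 comparisons. KRT18 in SCS against No Storage passed the adjusted p of 0.05 with a trended and robust prior (1.09, limma adjusted p = 0.0452), with array weights (0.99, 0.0428), without the dimmest 25% of probe sets (1.09, 0.0442) and with centred arrays (1.05, 0.0498), so 1 keratin passed there, and 83, 93, 82 and 49 probe sets. Without both arrays of lowest weight, an alternative chosen after seeing the data, 0 probe sets passed. With 1 array left out, the SCS difference ran from 0.95 to 1.31 for KRT18 and 0.65 to 0.89 for KRT19, with 0 to 2 keratins and 0 to 158 probe sets past the threshold: 0, 1 and 0 without No Storage replicates 1, 2 and 3, 2, 0 and 147 without the SCS replicates, and 1, 158 and 2 without the NEVKP replicates. In NEVKP against SCS, 1 probe set passed with array weights and 0 to 1 with 1 array left out. The F of KRT18 ran from 13.3 to 46.7. The difference of KRT18 minus KRT8 in SCS ran from -0.059 to 0.34, and was -0.059 without SCS replicate 1. With the replicate number as a block, KRT18 in SCS differed by 1.09 (limma adjusted p = 0.0601) and no keratin call changed. Averaging several probe sets per gene changed nothing, since each keratin has 1. The causes were not tested. The 3 arrays per group limit the precision.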
